A study of Mus musculus with 20 samples.

Results

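The topoisomerases are the enzymes that doxorubicin acts on, and they were followed here together with the enzymes that free them from DNA. The set holds 8 genes, Top1, Top1mt, Top2a, Top2b, Top3a, Top3b, Tdp1 and Tdp2. A transcript cluster, the summary of the probes that an array holds for a gene, was taken for a gene where the platform annotation gives it exactly 1 symbol, equal to that gene's. This found 10 clusters of the 34760 on the array, for 8 of the 19937 genes that have such a cluster. Top2a and Tdp1 had 2 clusters each, and the one with the higher mean over all arrays was used.

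The study asked whether folic acid (FA) alters the response of the heart to doxorubicin (DOXO). Left ventricles of 20 male C57BL/6 mice, 2 months old by the sample labels, were each profiled on 1 Affymetrix Mouse Gene 1.0 ST array. All mice received FA or a placebo from 7 days before the injection until the end. The 4 sham mice had placebo and no DOXO, the 4 FA-sham mice had FA at 10 mg per day and no DOXO, the 6 DOXO mice had placebo and 1 intraperitoneal injection of DOXO at 20 mg/kg, and the 6 FA-DOXO mice had both agents. Tissue was taken at day 10. This was a single high dose in young male mice of 1 strain, and whole ventricle was measured, in which fewer cells of a type and less RNA per cell cannot be told apart.

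Topoisomerases cut DNA, let strands pass or rotate, and close the cut again, which relieves the twist that transcription and replication build up. During the reaction the enzyme is bound to the DNA end through a tyrosine. Type I enzymes cut 1 strand, and TOP1 in the nucleus and TOP1MT in mitochondria are of this kind. Type II enzymes cut both strands. TOP2A is made mainly in dividing cells, where it untangles chromosomes before mitosis, and TOP2B is made in dividing and resting cells alike and is the form that adult cardiomyocytes are known to carry. Anthracyclines such as DOXO hold type II enzymes on the cut DNA. TOP3A and TOP3B resolve single-stranded crossings in DNA, and TOP3B also acts on RNA. TDP1 and TDP2 cleave the bond between a trapped enzyme and the DNA end, TDP1 after type I and TDP2 after type II enzymes.

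The promoters of the type II pair are shown because the CCAAT box, the site of the factor NF-Y, is a known element of genes that cycling cells use, Top2a among them. RefSeq sequence of build GRCm38.p6 was given for 5 of the 8 genes. The 250 bases before the start are printed 5′ to 3′ on the strand of the gene, with each CCAAT, or ATTGG where the box lies on the other strand, in capitals. The Top2a window is chr11:99024190-99024439 on the minus strand, and that of Top2b is chr14:16364956-16365205 on the plus strand.
Top2a: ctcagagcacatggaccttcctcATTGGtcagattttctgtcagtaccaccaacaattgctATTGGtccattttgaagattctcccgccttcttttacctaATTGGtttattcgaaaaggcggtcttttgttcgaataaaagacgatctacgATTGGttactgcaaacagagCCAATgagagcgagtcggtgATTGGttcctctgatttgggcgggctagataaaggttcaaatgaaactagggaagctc
Top2b: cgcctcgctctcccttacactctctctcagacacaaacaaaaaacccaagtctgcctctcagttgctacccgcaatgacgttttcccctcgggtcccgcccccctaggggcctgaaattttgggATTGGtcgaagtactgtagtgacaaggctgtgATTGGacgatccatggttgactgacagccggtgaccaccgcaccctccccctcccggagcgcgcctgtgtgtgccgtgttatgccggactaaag
The Top2a window held 6 boxes and the Top2b window 2. Top3b had 1, and Top1 and Tdp1 had 0. Of 32851 promoters of the same length, 33.85% held at least 1 box, 10.09% at least 2, and 19 of them (0.0578%) at least 6. These are matches of letters, and no binding was measured here.

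The spread of the signals was not the same on all arrays, within every group, and it is given before any level. The SD of all log2 signals of an array ran from 0.863 to 1.501. Arrays with an SD above 1.1 are called wide here and the other 12 narrow. Of the sham arrays 3 were wide, as were 1 of FA-sham, 2 of DOXO and 2 of FA-DOXO. The group means of the array SD were 1.27, 0.958, 1.13 and 1.04 in the same order. The defining markers of heart muscle moved with this spread. All 8 cardiomyocyte markers were measured, and their mean log2 signal ran from 11.63 to 13.13 on wide arrays and from 8.20 to 11.00 on narrow ones. It spanned 9.38 to 13.13 in sham, 8.20 to 11.65 in FA-sham, 8.63 to 12.79 in DOXO and 8.36 to 12.22 in FA-DOXO mice. The part of the markers in the results that follow was not tested, and the number of arrays limits the precision of all of them.

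Top2a signals held middle ranks on the arrays and did not separate the groups. The 4 sham mice had log2 signals of 6.62, 6.15, 6.18 and 6.78, and the 4 FA-sham mice had 6.64, 6.68, 6.65 and 6.63. The DOXO mice ran from 5.79 over a median of 6.41 to 6.74, and the FA-DOXO mice from 6.44 over 6.74 to 6.88. All groups overlapped. As a reference for genes that a ventricle is not known to use, 1035 olfactory receptor clusters were taken, and on 0 of 20 arrays did Top2a lie above their 95th percentile. Its rank among all clusters of its array was between the 30.1 and the 68.9 percentile.

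Top2b signals separated wide from narrow arrays, and the groups overlapped. The sham mice had log2 signals of 6.42, 7.72, 7.52 and 6.27, and the FA-sham mice 5.97, 6.18, 6.20 and 6.68. DOXO mice ran from 5.92 over a median of 6.24 to 7.19, and FA-DOXO mice from 6.22 over 6.31 to 7.36. In every group the highest values were those of wide arrays. Over all mice the wide arrays held 6.42 to 7.72 and the narrow ones 5.92 to 6.32, without overlap. How many of all clusters separate wide from narrow arrays in this way was not counted. Top2b lay above the 95th percentile of the olfactory clusters on 5 arrays, each of them wide, and on 0 of the 12 narrow ones. The same was true of the whole set, since on narrow arrays 0 of the 8 genes lay above that percentile, and over all 20 arrays Top1 did so on 5, Top1mt on 2, Top3a on 2, Top3b on 5, Tdp1 on 3 and Tdp2 on 6. At 6.98 ± 0.74 (SD, n = 4) in sham, 6.59 ± 0.50 (n = 6) in FA-DOXO, 6.45 ± 0.53 (n = 6) in DOXO and 6.26 ± 0.30 (n = 4) in FA-sham mice, neighbours in this order of the groups did not differ beyond their spread. Top2a means were 6.71 ± 0.15 (n = 6) in FA-DOXO, 6.65 ± 0.02 (n = 4) in FA-sham, 6.43 ± 0.32 (n = 4) in sham and 6.36 ± 0.36 (n = 6) in DOXO mice, and here too neighbours overlapped.

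**Figure D1:**
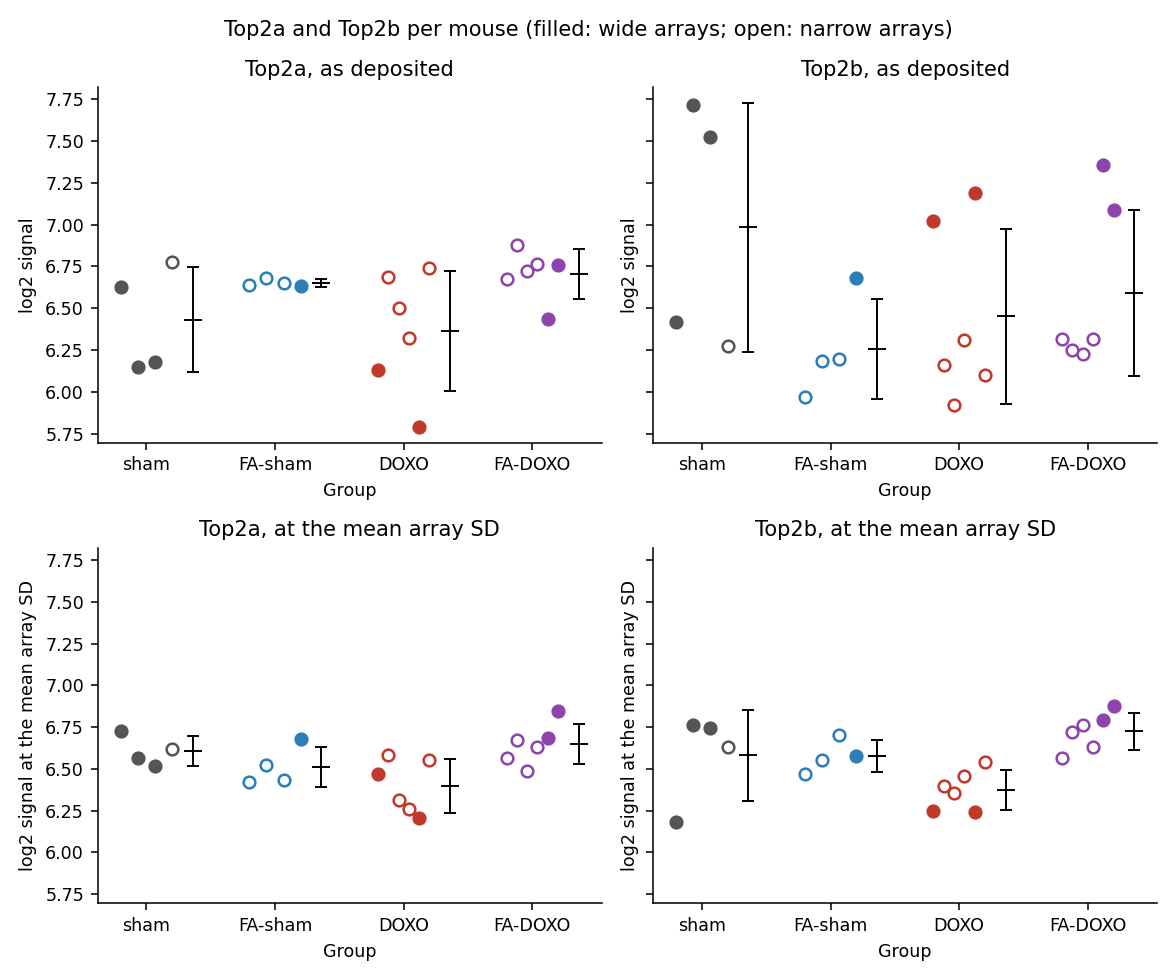
Log2 signal of Top2a (left) and Top2b (right) in each mouse by group, as deposited (top) and brought to the mean array SD with the slope of the limma fit (bottom). Filled points are wide and open points narrow arrays, and bars are the group mean ± SD. At the mean array SD the 6 FA-DOXO mice lay at 6.57 to 6.87 for Top2b, above the 6 DOXO mice at 6.24 to 6.54. How many of all clusters separate these groups in this way was not counted.

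In the fit with 1 mean per group, none of the 8 genes passed the study's unadjusted threshold of 0.01 in any of 6 comparisons (limma). The shares of all clusters past that threshold were 1.05% in DOXO against sham, 0.268% in FA-DOXO against FA-sham, 0.158% in FA-DOXO against DOXO, 4.35% in FA-sham against sham, 0.506% for DOXO over both diets and 0.463% for the interaction. With Benjamini-Hochberg adjustment at 0.05 these shares were 0.00288%, 0.00288%, 0%, 0%, 0.0115% and 0%, and again 0 of the 8 genes passed. At an unadjusted 0.05, 1 gene passed in FA-DOXO against DOXO and 0 in each other comparison. Beside these shares a count of 0 among 8 does not set the genes apart. The median difference over all clusters was 0.10 in DOXO against sham and 0.19 in FA-sham against sham, and the values of the 8 genes are read beside it.

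The gene that passed 0.05 was Top2a. It was higher in FA-DOXO than in DOXO mice by 0.34 on the log2 scale (SE 0.15, 95% interval 0.03 to 0.66, unadjusted p = 0.0343, adjusted p = 1.00, limma). Against sham, DOXO mice differed by -0.07 (SE 0.17) in Top2a and by -0.53 (SE 0.33, interval -1.22 to 0.15, unadjusted p = 0.120, limma) in Top2b. FA-sham mice differed from sham by -0.73 in Top2b (SE 0.36, unadjusted p = 0.0569, limma), and the sham arrays were those with the largest mean array SD. FA-DOXO against FA-sham gave 0.06 (SE 0.17) for Top2a and 0.33 (SE 0.33) for Top2b. These intervals leave room for a change of Top2b of more than 1 log2 unit downward after DOXO, and none was measured beyond the spread between mice.

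With the array SD as a covariate, both type II genes were higher in FA-DOXO than in DOXO mice. Top2b was higher by 0.35 (SE 0.09, interval 0.16 to 0.55, unadjusted p = 0.00141, limma) and Top2a by 0.25 (SE 0.08, interval 0.08 to 0.42, unadjusted p = 0.00632, limma). The adjusted p was 0.839 for both, so neither passed over all clusters. Top2b was above the 95th percentile of the olfactory clusters in 2 of the 6 DOXO and 1 of the 6 FA-DOXO mice and Top2a in 0, so most of the signals compared did not stand out from that reference. At the unadjusted threshold 2 of the 8 genes passed, both upward, beside 1.11% of all clusters in either direction and 0.837% upward. Tdp2, the enzyme for trapped type II ends, stood at 0.17 (SE 0.08, unadjusted p = 0.0426, limma). Brought to the mean array SD, Top2b ran from 6.57 to 6.87 in FA-DOXO and from 6.24 to 6.54 in DOXO mice, without overlap, and Top2a from 6.49 to 6.85 and from 6.21 to 6.58, with overlap. The slope used for this came from the same fit as the group means. How many of all clusters separate these groups in this way was not counted, so the separation is not shown to be particular to Top2b.

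An exact permutation test of each type II gene alone, chosen after seeing the data, was run in 4 comparisons, 8 tests in each form. With the array SD as a covariate and two-sided, FA-DOXO against DOXO gave an exact p of 0.00216 for Top2b, the smallest that 6 against 6 mice allow, and an exact p of 0.0390 for Top2a. Adjusted over these 8 tests alone the exact p were 0.0173 and 0.156, which does not cover that the tests were chosen late. Permuted within wide and within narrow arrays, the exact p was 0.0810 for Top2b and 0.0238 for Top2a. The smallest of that form was an exact p of 0.00952, for Top2b in FA-DOXO against FA-sham, and adjusted over its 8 tests none was under 0.0762. Without the covariate the exact p was 0.578 for Top2b and 0.0519 for Top2a. Each mouse was then left out of the covariate fit in turn, also chosen after seeing the data. Top2b stayed past 0.01 in 20 of 20 such fits, with differences of 0.32 to 0.39. Top2a did so in 14 of 20, with differences of 0.21 to 0.29. It missed the threshold without DOXO mouse 3, 4 or 5 and without FA-DOXO mouse 2, 5 or 6, and its highest p was 0.0230 (limma). The 20 fits include those without 1 of the 4 sham or 4 FA-sham mice, which kept every mouse of the 2 groups compared. All 6 misses of Top2a came from leaving out 1 of the 6 DOXO or 6 FA-DOXO mice.

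Other ways to treat the spread did not give the same picture for Top2b. Among the 4 wide arrays of these groups FA-DOXO exceeded DOXO by 0.12 in Top2b, and among the 8 narrow ones by 0.15. The wide DOXO arrays had array SDs of 1.43 and 1.499 and the wide FA-DOXO arrays 1.34 and 1.18, so the groups also differed in spread within the wide class. With the class as a block Top2b was at 0.14 (SE 0.16, unadjusted p = 0.388, limma) and did not pass. Top2a passed the unadjusted threshold there, at 0.34 (SE 0.12, unadjusted p = 0.00813, limma), with 0.63 among wide and 0.20 among narrow arrays. In that fit 249 of the 34760 clusters passed, 216 of them upward, and the lowest adjusted p among the 8 genes was 0.789 (limma). After quantile normalisation Top2a was at 0.28 (unadjusted p = 0.0103, limma) and Top2b at 0.11 (unadjusted p = 0.680, limma). Cardiomyocyte markers had a median difference of 0.21 in the same covariate fit, with 6 of 8 above 0 and 0 past the threshold, and their part was not tested.

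The second cluster of Top2a lay near the floor of the arrays, between the 2.47 and the 15.1 percentile, with 0.386% to 18.8% of the olfactory clusters below it. FA-DOXO minus DOXO was 0.11 (SE 0.14) in the plain fit and 0.08 (SE 0.13, unadjusted p = 0.531, limma) with the array SD. In that second fit DOXO minus sham was -0.22 (SE 0.14), FA-DOXO minus FA-sham 0.23 (SE 0.14) and the interaction 0.45 (SE 0.20, unadjusted p = 0.0380, limma), none past 0.01. It rests on a single cDNA record in the annotation, where the cluster used rests on the RefSeq transcript and 3 further records. A pair of further clusters, annotated to Top2a and Hibadh together, were not used.

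In the remaining comparisons 0 of the 8 genes passed 0.01 with the array SD as a covariate. The shares of all clusters past it were 4.14% in DOXO against sham, 1.07% in FA-DOXO against FA-sham, 1.83% in FA-sham against sham, 2.83% for DOXO over both diets and 1.78% for the interaction. In DOXO against sham Top2a was at -0.21 (SE 0.09, unadjusted p = 0.0348, limma) and Top2b at -0.21 (SE 0.11, unadjusted p = 0.0644, limma). Both signs were opposite in FA-DOXO against FA-sham, at 0.14 (SE 0.09) for Top2a and 0.15 (SE 0.10) for Top2b. The interaction, the DOXO difference on FA minus that on placebo, was 0.35 for Top2a (SE 0.13, unadjusted p = 0.0166, limma) and 0.36 for Top2b (SE 0.15, unadjusted p = 0.0298, limma), with adjusted p of 0.537 and 0.556. Without the covariate it was 0.12 (SE 0.24) and 0.87 (SE 0.46, unadjusted p = 0.0764, limma). The comparisons share the DOXO and sham mice and are not independent of each other.

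**Figure D2:**
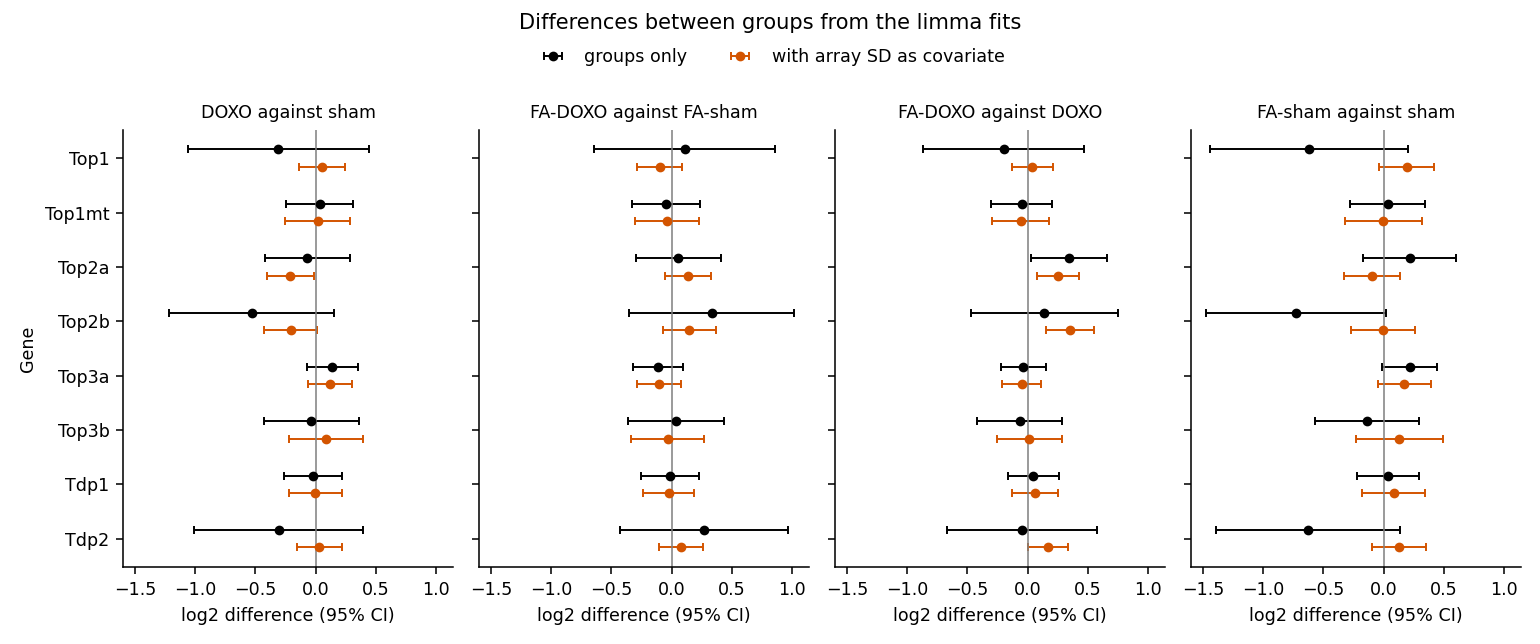
Log2 difference with its 95% confidence interval for each of the 8 genes in 4 comparisons, from the fit with groups only (black) and with the array SD as a covariate (orange). For Top1, Top2b and Tdp2 the covariate narrows the interval, and the 2 orange intervals farthest from 0 are those of Top2b and Top2a in FA-DOXO against DOXO.

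The signal of Top2b minus that of Top2a was compared per mouse. Top2a was above the 95th percentile of the olfactory clusters on 0 of 20 arrays and Top2b on 5, so on most arrays neither signal stood out from this reference, and the difference cannot show whether the balance of the isoforms shifted. Probes differ in how strongly they bind, so its sign says nothing about which transcript is more abundant, and only its change between mice can be read. The sham mice had -0.21, 1.57, 1.35 and -0.51, and the FA-sham mice -0.67, -0.50, -0.46 and 0.05. DOXO mice ran from -0.64 over -0.27 to 1.40 and FA-DOXO mice from -0.63 over -0.41 to 0.92. The groups overlapped, and the value lay above 0 in 7 of 8 wide and 0 of 12 narrow arrays. The means were 0.55 ± 1.06 (n = 4), -0.39 ± 0.31 (n = 4), 0.09 ± 0.86 (n = 6) and -0.12 ± 0.61 (n = 6), in the order sham, FA-sham, DOXO and FA-DOXO.

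The comparisons of this value are given as they were tested, and with that limit none says that the isoforms kept their balance. DOXO against sham was at -0.46 (two-sided exact permutation p = 0.419), FA-DOXO against FA-sham at 0.28 (exact p = 0.438), FA-DOXO against DOXO at -0.20 (exact p = 0.656) and FA-sham against sham at -0.94 (exact p = 0.229). Adjusted over the 4 comparisons, p lay between 0.584 and 0.656. The smallest p that 6 against 4 mice allow is 0.00476, and that for 4 against 4 is 0.0286. With the array SD as a covariate the differences were 0.02, 0.03, 0.09 and 0.19 in the same order, with exact permutation p from 0.314 to 0.938. Where both signals move together, this difference stays near 0.

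**Figure D3:**
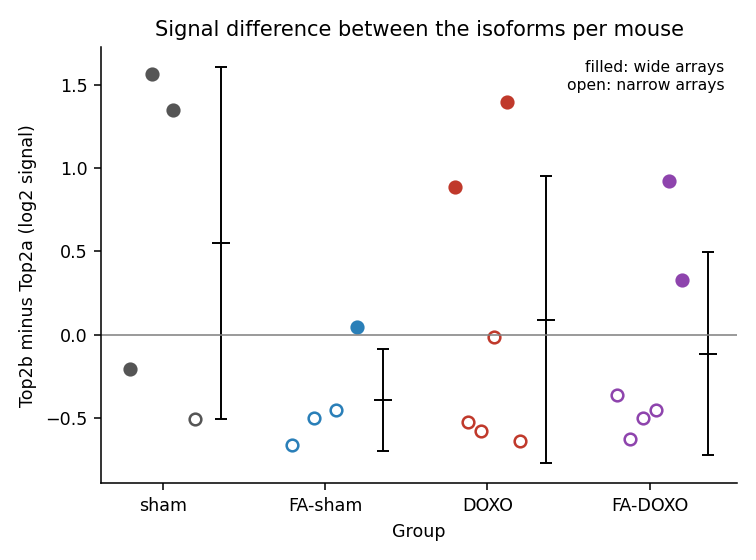
Top2b minus Top2a log2 signal in each mouse by group, with the group mean ± SD. Filled points are wide and open points narrow arrays, and 7 of 8 wide but 0 of 12 narrow arrays lie above 0.

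Of the type I enzymes, the nuclear form had separate ranges on wide and narrow arrays and the mitochondrial form had not. Top1, the main nuclear enzyme that relaxes DNA ahead of RNA polymerase, had log2 signals of 6.62 to 7.98 on wide and 6.28 to 6.56 on narrow arrays, without overlap. Its group means were 7.16 ± 0.79 (n = 4) in sham, 6.54 ± 0.27 (n = 4) in FA-sham, 6.85 ± 0.67 (n = 6) in DOXO and 6.65 ± 0.49 (n = 6) in FA-DOXO mice. DOXO minus sham was -0.31 (SE 0.36) and turned to 0.05 (SE 0.09) with the array SD. Top1mt, which relaxes the mitochondrial genome, held 6.07 to 6.75 on wide and 6.29 to 6.73 on narrow arrays. Its group means lay between 6.44 and 6.49, DOXO minus sham was 0.03 (SE 0.13), and FA-DOXO minus DOXO was -0.05 (SE 0.12).

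The topoisomerase III pair, which also cuts 1 strand, passed no threshold. Top3a, which works with the BLM helicase and in mitochondria, had group means of 6.21 ± 0.11 in sham, 6.43 ± 0.12 in FA-sham, 6.35 ± 0.16 in DOXO and 6.31 ± 0.09 in FA-DOXO mice. FA-sham minus sham was 0.22 (SE 0.11, unadjusted p = 0.0654, limma), and it was 0.17 (SE 0.10) with the array SD. Top3b, the form that also acts on RNA, had group means of 7.10 ± 0.44, 6.96 ± 0.09, 7.06 ± 0.36 and 6.99 ± 0.14 in the same order, and DOXO minus sham was -0.04 (SE 0.19).

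Of the phosphodiesterases, Tdp2 had separate ranges on wide and narrow arrays and Tdp1 had not. Tdp1 had group means between 6.70 and 6.76, with DOXO minus sham at -0.02 (SE 0.11) and the 95% interval from -0.26 to 0.22. Its second cluster, of lower signal, gave 0.25 (SE 0.18) for that comparison and 0.48 (SE 0.19, unadjusted p = 0.0228, limma) in FA-sham against sham, where the array SD as a covariate left 0.13 (SE 0.10). Tdp2 held 6.98 to 7.77 on wide and 6.18 to 6.74 on narrow arrays, without overlap. The sham mice had a mean of 7.20 ± 0.61 and the DOXO mice 6.89 ± 0.64, and the difference of -0.31 (SE 0.33) became 0.03 (SE 0.09) with the array SD. FA-sham minus sham went from -0.62 (SE 0.37) to 0.13 (SE 0.11).

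Compared within groups, wide arrays exceeded narrow ones by 0.97 in Top1, 0.97 in Tdp2, 0.89 in Top2b and 0.25 in Top3b. The value was 0.01 in Tdp1, -0.11 in Top3a, -0.13 in Top1mt and -0.33 in Top2a. Over all clusters it had a median of -0.22 and quartiles of -0.47 and 0.33, so Top1, Tdp2 and Top2b lay above the upper quartile. Their places among all clusters were the 87.7, 87.6 and 86.4 percentile. The share of all clusters with separate ranges on wide and narrow arrays was not counted, so such ranges are not shown to be particular to these genes.

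**Figure D4:**
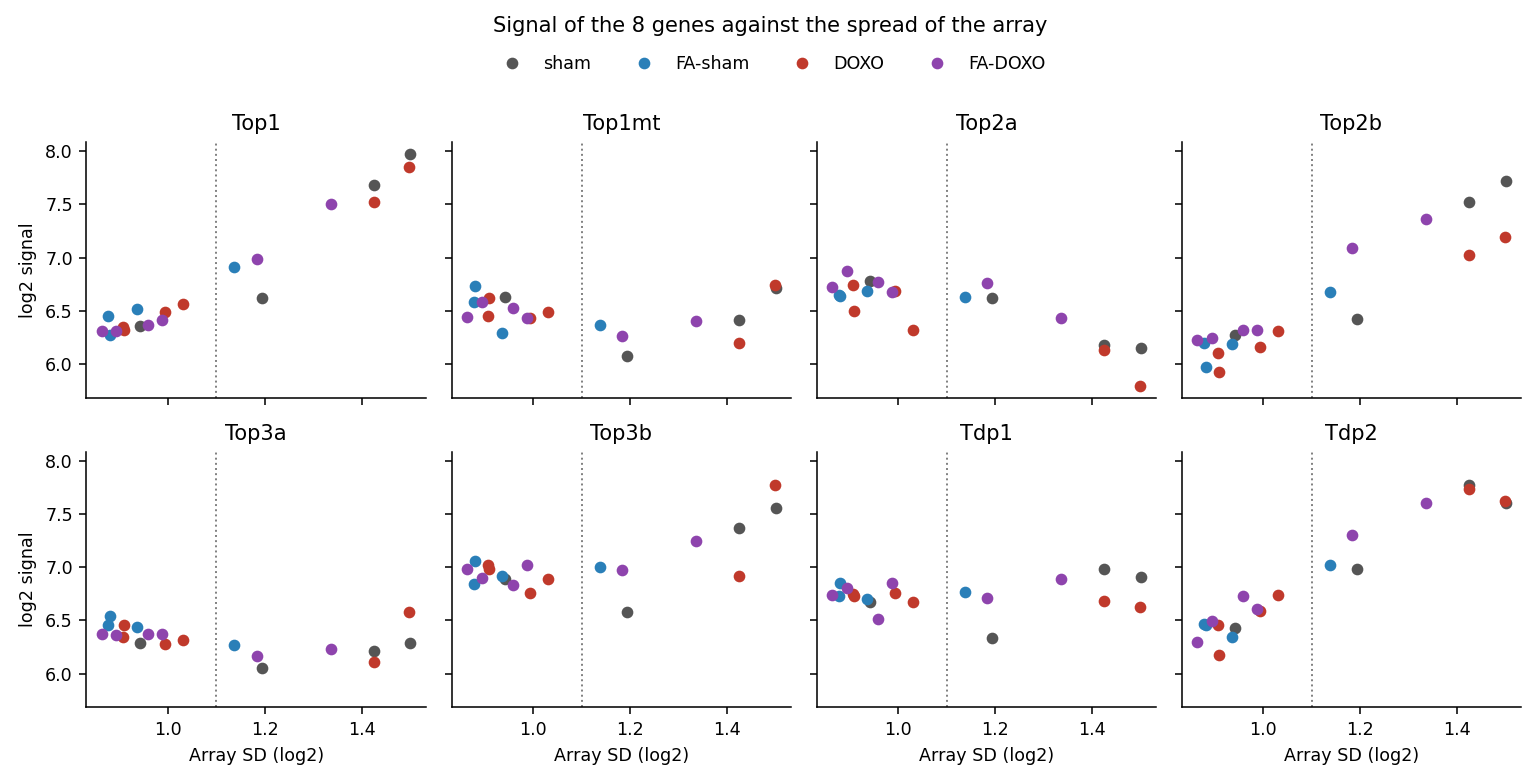
Log2 signal of each of the 8 genes against the SD of all log2 signals of the array, 1 point per mouse, coloured by group. The dotted line marks the array SD of 1.1. Top1, Top2b and Tdp2 climb with the array SD, and Top2a is lowest on the 4 widest arrays.

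Genes whose signals ran most like those of the type II enzymes were ranked by Pearson's r over the 20 arrays, given as a description, since arrays share their spread. For Top2b they were Smurf2, a ubiquitin ligase, with r of 0.99, the kinase Taok1 with 0.99 for each of 2 clusters, Arfgef1 with 0.99 and Cped1 with 0.98. Once the array SD had been regressed out of both, Arsk, a sulfatase, came first with 0.94, before Fam13a, Taok1, Arfgef1 and Smurf2 with 0.90 to 0.91. For Top2a the order was Knl1, a kinetochore scaffold, with 0.95, Pycard, Anapc5, a subunit of the anaphase-promoting complex, Muc15 and Gabrb2, the last at 0.94. With the array SD regressed out it was Fat3, Knl1, Stard6, Anapc5 and Slco1a6, from 0.85 to 0.83. Between the type II genes r was -0.67 as deposited and 0.46 with the array SD regressed out, and Top2b had 0.96 with Top1 and 0.94 with Tdp2 as deposited.

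Genes that work with topoisomerases or repair their lesions did not pass in the DOXO comparisons. In DOXO against sham 0 of 8 partners, 0 of 14 genes for repair of trapped enzymes and blocked ends, 0 of 9 for end joining, 0 of 19 for S phase and mitosis, 0 of 8 of condensin, 0 of 8 of cohesin with CTCF and 0 of 11 for upkeep of mitochondrial DNA passed the unadjusted threshold of 0.01 in limma, beside the 1.05% of all clusters. The list medians were 0.17, -0.02, 0.04, 0.06, -0.05, -0.33 and -0.13 in that order, beside 0.10 over all clusters. The smallest p among them were those of Tfb1m and Tfam, both in the list for upkeep of mitochondrial DNA. Tfb1m was at -0.87 (SE 0.40, unadjusted p = 0.0421, limma) and Tfam at -0.69 (SE 0.32, unadjusted p = 0.0459, limma). In the repair list Eme1, a nuclease subunit, stood at 0.39 (SE 0.21) and the polymerase Polb at -0.77 (SE 0.42). In FA-DOXO against DOXO too, 0 genes of these 7 lists passed, with medians from -0.03 to 0.07 beside 0.03 over all clusters. FA-sham against sham, where 4.35% of all clusters passed, had Spo11, the meiotic relative of topoisomerases, at 0.61 (SE 0.21, unadjusted p = 0.00940, limma) and Tfam at -1.04 (SE 0.35, unadjusted p = 0.00803, limma), both past the threshold. With the array SD as a covariate neither passed there. In that fit 0 of 8 partners and 0 of 11 genes for mitochondrial DNA passed, beside 1.83% of all clusters.

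The array SD as a covariate brought 3 of 19 genes of S phase and mitosis past the threshold in DOXO against sham, each lower after DOXO. Cdk1, the kinase that starts mitosis, was at -0.42 (SE 0.12, unadjusted p = 0.00225, limma), Ube2c, a conjugating enzyme of the anaphase-promoting complex, at -0.33 (SE 0.09, unadjusted p = 0.00247, limma) and Ccna2, cyclin A2, at -0.26 (SE 0.09, unadjusted p = 0.00972, limma). The list had a median of -0.04 beside 0.04 over all clusters, and 4.14% of all clusters passed there. In the same fit Tfb1m was at -0.48 (SE 0.15, unadjusted p = 0.00427, limma). In FA-DOXO against DOXO, where both type II genes passed, 0 of the 19 genes of S phase and mitosis did, with a median of -0.03 and 8 of 19 above 0. Xrcc4, which joins DNA ends with ligase IV, was higher by 0.19 (SE 0.06, unadjusted p = 0.00383, limma), the only 1 of 9 in its list. The 8 genes of cohesin and CTCF, with which TOP2B is known to share sites on chromatin, all lay above 0. Their median was 0.18 beside 0.01 over all clusters, and 0 of them passed. Without the covariate 2 of the 8 lay above 0 and 0 passed, with a median of -0.03. With the covariate all 5 endothelial and all 5 macrophage markers were above 0 as well. For mitochondrial DNA 0 of 11 passed, with a median of 0.08. In FA-sham against sham with the covariate the 8 genes of cohesin and CTCF also all lay above 0. Their median there was 0.11 beside 0.07 over all clusters, and 0 passed. The mean log2 signal of this list was 7.55 on wide and 6.60 on narrow arrays.

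Markers of other cells were read beside these values. In DOXO against sham 3 of 5 neutrophil markers were higher past the threshold, S100a8 by 1.32 (SE 0.31), S100a9 by 0.74 (SE 0.19) and Ngp by 1.25 (SE 0.35). Of the 3 erythroid genes measured, Alas2 was lower past the threshold, at -0.66 (SE 0.15), and 2 lay above 0. Of all clusters 1.05% passed in that comparison. The mean log2 signal over the 5 neutrophil markers spanned 5.49 to 6.45 in sham and 6.52 to 7.18 in DOXO mice. It spanned 6.22 to 6.58 in FA-sham and 6.33 to 6.76 in FA-DOXO mice. How many of all clusters separate sham from DOXO mice was not counted. In FA-sham against sham 5 of 5 neutrophil markers lay above 0 and 1 passed, with a median of 0.48, beside 4.35% of all clusters. FA-DOXO against FA-sham had 0 of 5 past the threshold, with a median of 0.04, beside 0.268% of all clusters. In FA-DOXO against DOXO 0 of 5 neutrophil and 0 of 5 macrophage markers passed, with medians of -0.05 in both lists, and with the array SD the medians were -0.08 and 0.09. In DOXO against sham with the array SD, the fit in which Cdk1, Ube2c and Ccna2 were lower, 2 of 5 macrophage markers were higher past the threshold, C1qa by 0.37 (SE 0.10) and Cd68 by 0.31 (SE 0.10), at a list median of 0.31. Of the 5 macrophage markers 3 lay above 0 in that fit, and 4.14% of all clusters passed. Without the covariate 2 of the 5 lay above 0 and 0 passed, with a median of -0.07. Of the endothelial markers 0 of 5 passed in DOXO against sham, with a median of -0.42, and -0.08 with the array SD. Of 5 fibroblast and 4 lymphocyte markers 0 passed there in either fit. Their medians were -0.01 and 0.10 in the plain fit, and 0.07 and -0.08 with the array SD. None of 8 cardiomyocyte markers passed in DOXO against sham, at a median of -1.03, which was -0.09 with the array SD. The part of these markers in the values of the topoisomerases was not tested.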

How the data were processed

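Left ventricles of 20 mice, grouped by the sample labels, were measured on 1 array each. The authors deposited log2 signals per transcript cluster, made with R 2.14.2 per the labels. How background, normalisation and probe summary were done is not given in the sources used here. Array medians and spreads differ, so a difference in spread can enter every comparison.

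With limma 3.58.1 in R 4.3.3, 1 mean per group was fitted to all 34760 clusters, without filter, further normalisation or covariate, at an unadjusted 0.01 (the study's threshold) and at Benjamini-Hochberg 0.05. The fit was tested on simulated data with independent noise. These held no differences in array spread, so that test does not cover them. Top2b minus Top2a was tested by two-sided exact permutation. Symbols come from the platform annotation.

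The 8 genes and the gene lists were chosen with earlier results of these data known. Named from the lists were up to 3 genes with the smallest p in DOXO against sham, any past 0.01, and the 5 clusters most like Top2a or Top2b. Alternatives covered scaling, array spread (covariate, block, either class alone), filters, weights, moderation, other clusters, a replicate block, and leaving out single mice. Mice of a group are separate animals.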

Additional observations from a re-analysis of the deposited data

Results flagged for a closer look

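In the DOXO group the signal of Top3b stood apart in 1 mouse. DOXO mouse 5 had a log2 signal of 7.78 and the other 5 mice 6.76 to 7.03, a gap of 0.739 of the range of the group. That mouse has a wide array, and the part of this in the value was not tested. Such a gap was looked for in 36 sets (8 genes and Top2b minus Top2a in 4 groups), and chance alone gives about 1 in 20. The interaction passed the threshold for 0 of 8 genes.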

How the results depend on the processing

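The count of members past the threshold was 0 in all 6 comparisons and stayed so in each fit without 1 mouse. In FA-DOXO against DOXO 2 passed once the array SD was a covariate, beside 386 of 34760 clusters. With the array spread class as a block 1 passed, beside 249 of 34760. Array weights gave 7 in DOXO against sham, 7 in FA-sham against sham, 6 for DOXO over both diets and 6 for the interaction, but the weights did not converge, so these counts carry no meaning. They put 99.2% of the sham weight on 1 mouse and called 29514 of 34760 clusters in DOXO against sham. Under them Top2a turned to 0.40 in DOXO against sham, 0.25 over both diets and -0.30 in the interaction, and Tdp1 to -0.23 in FA-sham against sham. Without array weights, 97 of 488 differences of single genes changed sign and 0 did so past the threshold.

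No test of Top2b minus Top2a passed, but some could not have. The replicate block had 16 arrangements in every comparison but FA-DOXO against DOXO, since it used only mice whose number occurs in both groups. The test within spread classes had 16 arrangements in FA-sham against sham. With 16 arrangements these tests could not reach 0.05. Within wide or narrow arrays alone no test was run. Top2b minus Top2a changed sign with the array SD in DOXO against sham (0.02), FA-DOXO against DOXO (0.09) and FA-sham against sham (0.19), with the spread class in DOXO against sham (0.17), within wide (0.24) and narrow arrays (0.07) there, and in FA-DOXO against DOXO without DOXO mouse 5 (0.06). With the replicate block it was -0.61, -0.09, -0.20 and -0.94 in the order DOXO against sham, FA-DOXO against FA-sham (where this turned the sign), FA-DOXO against DOXO and FA-sham against sham. Deviations of same-numbered mice of different groups correlated from -0.86 to 0.84, over 0.1 in 12 of 26 pairs. For mice of different numbers they ran from -0.93 to 0.89, over 0.1 in 66 of 122 pairs. Arrays also share their spread, so this check cannot show whether the numbers pair the mice. On narrow arrays none of the 8 genes lay above the 95th percentile of the olfactory receptors, which limits what a change in any of them can show.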
